A study of Mus musculus with 4 samples.

Results

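The Rab, Arf, Arl and Sar1 genes encode small GTPases of membrane traffic, and 78 of the 27115 genes in the table were taken as members by their symbols. These were 55 Rab genes, 6 Arf genes (Arf1 to Arf6), 15 Arl genes (ending in a number or in the letters a, b or c) and 2 Sar1 genes. Transcripts were measured by RNA sequencing in 2 libraries of mouse 2-cell embryos labelled Trim75 OE (Trim75-OE below, for overexpression) and in 2 libraries of 2-cell embryos labelled WT (control below). All 4 libraries came from embryos cultured in vitro and collected at day 2. The study asks how Trim75, a gene of the tripartite motif family whose transcript is supplied by the mother, takes part in switching on the zygotic genome, and the comparison sets embryos with excess Trim75 beside control embryos. The labels do not give the strain, the way Trim75 was overexpressed, or whether replicate libraries were made from different pools of embryos. The p-values therefore rest on the spread between these 4 libraries alone, and that spread may be technical. The titles of the control libraries carry the tag L2C, which the Trim75-OE titles lack, and a difference in stage or batch that followed the groups cannot be told apart from the overexpression. In such bulk samples a level is a mean over all cells, scaled to the library. A lower level is thus a lower share of the counted reads, and differences in cell number or total RNA cannot be seen in it.

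A small GTPase of this kind is a switch. It is anchored to a membrane when bound to GTP, where it gathers coats, tethers and motors, and it is returned to the cytosol when GTP is hydrolysed. Exchange factors load GTP, GTPase-activating proteins trigger hydrolysis, and the GDP dissociation inhibitors (GDI) keep Rab proteins soluble. Sar1 and the Arf proteins start the assembly of vesicle coats, the Rab proteins mark single compartments, and the Arl proteins act at the Golgi, on lysosomes and in cilia. In oocytes and early embryos these routes carry receptors, adhesion molecules and new plasma membrane to the cell surface.

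Library depth ranged from 9965081 to 14599670 counted reads, and 67 of the 78 members had enough reads to be tested. Reads were found for 21886 and 21665 genes in Trim75-OE libraries, against 20467 and 19830 genes in control libraries. Control replicate 2 was nonetheless the deepest library. The part of this difference in control values of 0 reads was not tested. Trim75 stood at 919 and 990.1 CPM (counts scaled to a common library size) in the Trim75-OE libraries, against 171 and 117 CPM in the control libraries, a log2 difference of 2.73 ± 0.28 (SE) with an edgeR p of 0.00043 for this gene alone (adjusted p = 0.32 over all genes). CPM here and below is scaled to the library size after TMM (trimmed mean of M-values) correction. Of 12 genes listed as markers of 2-cell embryos, 10 were in the table and each had reads in every library, with summed levels of 2027 and 2110 CPM in Trim75-OE libraries and 1530 and 2430 CPM in control libraries. Of 15 listed genes of cumulus and granulosa cells, the cells that surround the oocyte, 10 were in the table. Their summed level was 173 and 229 CPM in Trim75-OE libraries and 193 and 135 CPM in control libraries, most of it Nr5a2 and Amhr2. Fshr, Foxl2, Has2 and Ptx3 had 0 reads in both Trim75-OE libraries and at most 3 reads in either control library. Of 10 listed sperm genes, 3 were in the table, and Odf2, which is also a centrosomal gene, made up most of their 409 and 479 CPM in Trim75-OE libraries and 282 and 332 CPM in control libraries. The 10 listed genes of blastocyst lineages, all in the table, summed to 130.3 and 143 CPM in Trim75-OE libraries and 149 and 135 CPM in control libraries. The part of these other cell types in the results was not tested.

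In the quasi-likelihood test of edgeR, adjusted over all genes by Benjamini-Hochberg, 0 of the 67 tested members passed an adjusted p of 0.05. The same test called 0% of the 16801 genes tested, with 1888 genes at an unadjusted p under 0.05. DESeq2, run as an alternative, called 3 of 67 members (4.48%), against a background of 5.51% of 16075 genes. They were Arf6, lower in Trim75-OE embryos (background of lower calls 1.73%), and Rab14 and Rab2a, both higher (background of higher calls 3.78%). At an unadjusted edgeR p under 0.05, 4 members had higher values (Rab14, Rab2a, Rab11a and Arl4a; 5.97%, background 7.71%) and 1 had lower values (Arf6; 1.49%, background 3.53%). Both Trim75-OE libraries lay above both control libraries for 20 members (29.9%, background 24%) and below both for 11 members (16.4%, background 19.6%). Fitted values were higher for 37 members and lower for 30, where over all genes 51.3% were higher and 48.7% lower. The median log2 fold change was 0.16 over the 67 members, with quartiles of -0.58 and 0.68, and 0.03 over all genes. By adjusted p the GTPases as a group were thus called about as often as other genes. At an unadjusted p under 0.05, edgeR passed 7.46% of the members against 11.2% of all genes. DESeq2, with no filter on low counts, passed 16.7% of 78 members against 10.3% of 27115 genes. With no filter, edgeR passed 5 members with higher and 2 with lower values of 78, and 1774 of 27115 genes. The first 2 comparisons thus differed in direction, but they differ in filter as well as in tool. The account below turns on single members.

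**Figure D1:**
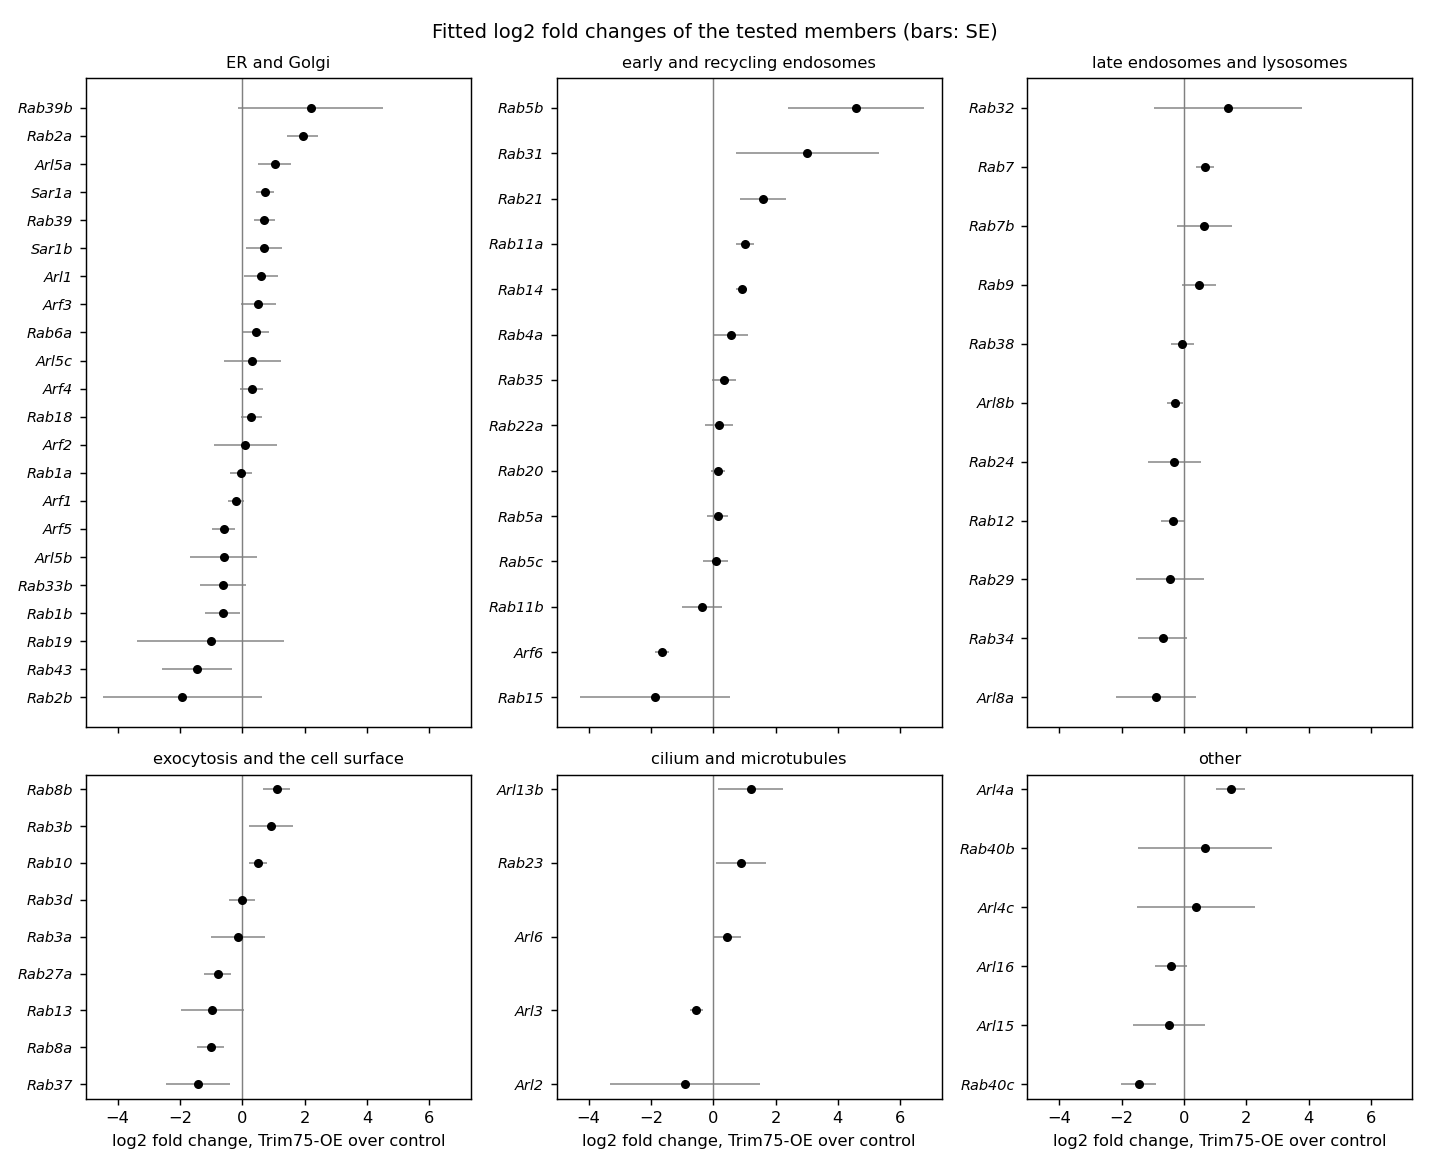
Fitted log2 fold change (Trim75-OE over control, edgeR) of the 67 tested members, in panels by the compartment each is best known for; points are estimates and bars are standard errors over 2 libraries per group. Many bars cross 0, while those of Arf6 at -1.64 and Rab14 at 0.91 are short and do not.

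The transcript pool of these GTPases was dominated by a few genes. Levels of different genes are compared here in FPKM (fragments per kilobase of exon, scaled to library depth), as deposited. Over the 4 libraries 6 members averaged at least 100 FPKM, namely Arf6, Rab20, Rab10, Arf1, Rab7 and Arl3, 38 averaged at least 10 and 63 at least 1. Arf6 led with a mean of 347 FPKM and was the first of the 78 in both control libraries, but it had ranks 2 and 4 in the Trim75-OE libraries. Rab20 (159 FPKM), Rab10 (149 FPKM), Arf1 (128 FPKM), Rab7 (122 FPKM) and Arl3 (114 FPKM) followed in the mean over libraries. Arf6 alone made up 7.83% and 7.89% of the summed FPKM of the 78 members in Trim75-OE libraries, against 21.9% and 25.2% in control libraries. Reads were found in all 4 libraries for 62 members, and 16 had 0 reads in some library.

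Arf6, which acts at the plasma membrane in endosome recycling and in the remodelling of cortical actin, had the lowest p of the members. The gene lies on the plus strand of chromosome 12 from 69372150 to 69373783 (mm10), with 1534 bases of exon. It measured 246 and 266 CPM in Trim75-OE libraries, against 740.3 and 860.2 CPM in control libraries. The libraries of a group lay close together and the groups were far apart. The group means were 256 ± 14.3 CPM in Trim75-OE embryos and 800.3 ± 84.8 CPM in control embryos (SD, n = 2 each). On the log2 scale the difference was -1.64 ± 0.21 (SE). It had an adjusted p of 0.32 in edgeR and 6.0e-07 in DESeq2, and DESeq2 kept it at 0.0092 or below with any single library left out. The log2 fold change in edgeR ran between -1.76 and -1.53 over the same omissions. Gm9887 on the opposite strand shares 209 exon bases with Arf6 and had 61 and 5 reads in Trim75-OE libraries, against 6 and 109 in control libraries, where Arf6 had 3238 and 2836 reads in Trim75-OE libraries and 7673 and 12546 reads in control libraries.

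None of the other 5 Arf genes was called by edgeR or DESeq2, and none had an unadjusted edgeR p under 0.05. Arf1, which recruits the COPI coat to the Golgi, measured 226 and 271 CPM in Trim75-OE libraries and 320 and 251 CPM in control libraries, and the groups overlapped (log2 fold change -0.20 ± 0.25, SE). Arf5 measured 95.9 and 56.9 CPM in Trim75-OE libraries, against 119 and 114 CPM in control libraries, a log2 fold change of -0.60 ± 0.37 (SE) with an adjusted p of 0.71 in edgeR. Arf2, Arf3 and Arf4 had overlapping groups, with log2 fold changes of 0.09, 0.50 and 0.29. Summed over Arf1 to Arf5 the level was 234 and 228 FPKM in Trim75-OE libraries and 299 and 232 FPKM in control libraries. With Arf6 added the sum was 392 and 394 FPKM in Trim75-OE libraries, against 801 and 792 FPKM in control libraries. Arf6 therefore held 40.4% and 42.2% of the Arf total in Trim75-OE libraries and 62.7% and 70.7% in control libraries. These shares were computed after the value of Arf6 was known.

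**Figure D2:**
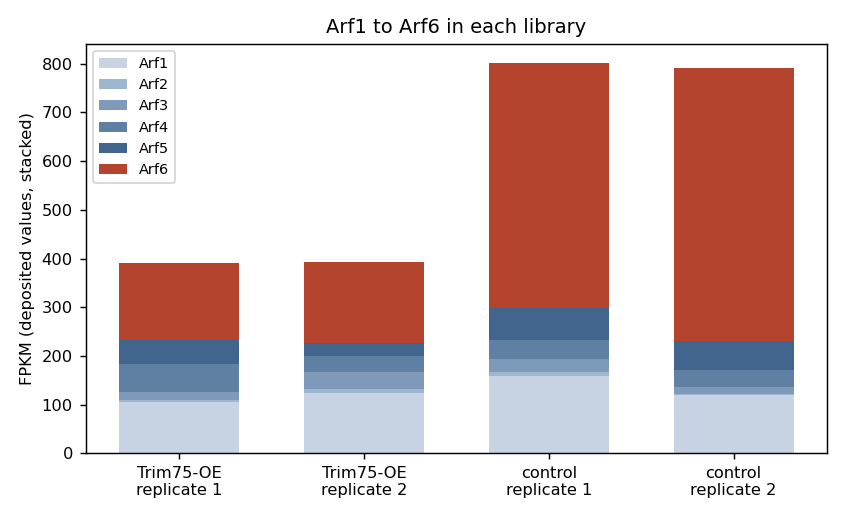
Deposited FPKM of Arf1 to Arf6, stacked, in each of the 4 libraries. The Trim75-OE bars reach 392 and 394 FPKM and the control bars 801 and 792 FPKM, and most of the gap is in the red Arf6 segment.

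Of the 14 tested genes of early and recycling endosomes, Arf6 included, 11 had higher and 3 lower values in Trim75-OE embryos, where 51.3% of all genes had higher values. Both Trim75-OE libraries lay above the controls for 6 of the 14 (42.9%, background 24%) and below for 2 (14.3%, background 19.6%), and the median log2 fold change was 0.27. DESeq2 called Rab14 higher and Arf6 lower, 2 of 14 where 5.51% of all genes were called, and edgeR called 0 of the 14, with 2 higher and 1 lower at an unadjusted p under 0.05. The summed level of the 16 members with this role was 2495 and 2604 CPM in Trim75-OE libraries and 2219 and 2298 CPM in control libraries.

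Rab14, which works between the trans-Golgi network and early endosomes, had the highest CPM of the members in both Trim75-OE libraries, but not in the control libraries, where Arf6 was higher. It measured 895 and 924 CPM in Trim75-OE libraries, against 483 and 484 CPM in control libraries. Both groups were tight and well apart, with means of 909.7 ± 20.7 CPM in Trim75-OE embryos and 484 ± 0.63 CPM in control embryos (SD, n = 2 each). The log2 fold change was 0.91 ± 0.18 (SE), with an adjusted p of 0.32 in edgeR and 0.0060 in DESeq2. It ran only between 0.89 and 0.91 in edgeR with single libraries left out, while the adjusted p in DESeq2 was 0.30 without Trim75-OE replicate 1, 0.40 without Trim75-OE replicate 2, 0.049 without control replicate 1 and 0.055 without control replicate 2.

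Rab11a, the main Rab of recycling endosomes, measured 324 and 315 CPM in Trim75-OE libraries, against 188 and 125 CPM in control libraries. The groups did not overlap, and the log2 fold change was 1.03 ± 0.29 (SE). The adjusted p was 0.34 in edgeR and 0.063 in DESeq2. In edgeR the log2 fold change of Rab11a was 1.34 without control replicate 1 and 0.76 without control replicate 2. Its paralogue Rab11b was scarcer, at 14.4 and 21.2 CPM in Trim75-OE libraries and 22.1 and 23.6 CPM in control libraries. Its level is uncertain, because Gm17251 shares 329 exon bases with it on the opposite strand and had 397 and 218 reads in Trim75-OE libraries and 560 and 1398 reads in control libraries. Rab21, which carries integrins from the surface into early endosomes, measured 123 and 226 CPM in Trim75-OE libraries, against 25.4 and 89.9 CPM in control libraries. The libraries of each group differed widely, and the log2 fold change of 1.60 ± 0.73 (SE) had an adjusted p of 0.55 in edgeR. It was 2.78 without control replicate 2 and 0.95 without control replicate 1.

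The Rab5 genes, which mark early endosomes, did not move together. Rab5a, the most abundant in CPM, measured 214 and 166 CPM in Trim75-OE libraries and 132 and 211 CPM in control libraries. Rab5c measured 62.96 and 113 CPM in Trim75-OE libraries and 86.2 and 80.4 CPM in control libraries, so both genes overlapped between the groups. Reads of Rab5a could also have been split with its pseudogene Rab5a-ps, which had 356 and 244 reads in Trim75-OE libraries and 155 and 423 reads in control libraries. Rab5b had 303 and 95 reads in Trim75-OE libraries, against 0 and 19 reads in control libraries, and its log2 fold change of 4.58 ± 2.19 (SE) had an adjusted p of 0.57 in edgeR and 0.13 in DESeq2. In edgeR the log2 fold change of Rab5b was 3.60 without control replicate 1 and 10.5 without control replicate 2. The pseudogene Gm13991 matches Rab5b at 99.4% identity and had 18 and 27 reads in Trim75-OE libraries and 0 and 1 in control libraries. Among the rest, Rab20, a Rab of endosomes and phagosomes, stood at 212 and 256 CPM in Trim75-OE libraries and 209 and 212 CPM in control libraries. The groups nearly touched, with a log2 fold change of 0.16 ± 0.23 (SE). Rab35, Rab22a and Rab4a, which act in recycling and in endosome sorting, all overlapped between the groups, with log2 fold changes of 0.35, 0.19 and 0.56. Rab31 had 39 and 94 reads in Trim75-OE libraries, against 15 and 0 in control libraries. Its log2 fold change in edgeR was 3.02 (adjusted p = 0.80). That fold change was 9.24 without control replicate 1 and 2.02 without control replicate 2. Rab15 had 25 and 0 reads in Trim75-OE libraries, against 4 and 97 in control libraries.

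The start regions of Rab14 and Rab11a are shown because both are endosomal genes with higher values at an unadjusted edgeR p under 0.05. Each sequence runs from 250 bases before to 50 bases after the RefSeq start on GRCm38.p6, the assembly of mm10, 5′ to 3′ on the strand of the gene. Capitals mark 4 short motifs on either strand: the GC box (GGGCGG), the CCAAT box (CCAAT), letters found in ETS sites (CGGAAG) and the TATA box (TATAAA). The Rab14 window lies at chr2:35201071-35201370 and the Rab11a window at chr9:64737707-64738006, both on the minus strand.
Rab14: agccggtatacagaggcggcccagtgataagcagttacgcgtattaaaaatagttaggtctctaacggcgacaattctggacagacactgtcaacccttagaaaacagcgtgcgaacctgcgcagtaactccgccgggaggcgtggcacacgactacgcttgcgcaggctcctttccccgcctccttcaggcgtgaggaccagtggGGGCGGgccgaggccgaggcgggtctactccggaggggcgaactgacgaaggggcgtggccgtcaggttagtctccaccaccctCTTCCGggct
Rab11a: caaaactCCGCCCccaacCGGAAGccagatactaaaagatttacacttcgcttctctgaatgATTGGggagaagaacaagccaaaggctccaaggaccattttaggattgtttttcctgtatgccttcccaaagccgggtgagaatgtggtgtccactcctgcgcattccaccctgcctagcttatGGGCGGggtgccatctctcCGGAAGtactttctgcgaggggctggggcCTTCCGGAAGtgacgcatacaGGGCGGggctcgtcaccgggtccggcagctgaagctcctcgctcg
The Rab14 window held 1 GC box and 1 CGGAAG, and the Rab11a window held 3 GC boxes, 4 CGGAAG and 1 CCAAT, with 2 of the CGGAAG matches overlapping each other as CTTCCGGAAG. Neither held TATAAA. Over the 82 promoter windows of 65 members in the RefSeq table, 75.6% held a GC box, 43.9% CCAAT, 34.1% CGGAAG and 6.10% TATAAA, against 35.6%, 37.4%, 16.9% and 13.6% of all 32817 windows. The member windows were also richer in G and C, with a median of 63.3% against 52.7% over all windows, and the part of base composition in these shares was not tested. A match is only a run of letters, and binding was not measured.

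Among the genes of the ER and the Golgi, 22 were tested, 13 with higher and 9 with lower values, 6 above (27.3%, background 24%) and 3 below (13.6%, background 19.6%) the controls in both libraries, and a median log2 fold change of 0.29. Rab2a, which acts in traffic at the Golgi, had the largest change of the members that DESeq2 called. It measured 56.96 and 104.96 CPM in Trim75-OE libraries, against 22.4 and 19.7 CPM in control libraries. The groups were apart but the Trim75-OE libraries differed from each other, and the log2 fold change of 1.94 ± 0.50 (SE) had an adjusted p of 0.32 in edgeR and 0.018 in DESeq2. The DESeq2 adjusted p was 0.27 and above without either Trim75-OE library, and 0.024 and 0.062 without control replicates 1 and 2. A processed pseudogene row, Gm5865, resembles Rab2a at 96.4% identity over 637 bases and had 113 and 218 reads in Trim75-OE libraries, against 105 and 44 in control libraries, so some reads could have been split between them. Its paralogue Rab2b had 0 and 52 reads in Trim75-OE libraries and 20 and 242 reads in control libraries (adjusted p = 0.92 in edgeR).

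The Sar1 genes, which start the COPII coat on the ER, both had higher means in Trim75-OE embryos. Sar1a measured 136.6 and 136.5 CPM in Trim75-OE libraries, against 72.3 and 94.2 CPM in control libraries, a log2 fold change of 0.71 ± 0.29 (SE) with an adjusted p of 0.49 in edgeR. Sar1b measured 57.8 and 123 CPM in Trim75-OE libraries and 74.1 and 38.2 CPM in control libraries, and here the groups overlapped. Rab1a, a Rab of the step between the ER and the Golgi, measured 231 and 165 CPM in Trim75-OE libraries and 159.6 and 252 CPM in control libraries, a log2 fold change of -0.05 ± 0.35 (SE). Its paralogue Rab1b had lower values in both Trim75-OE libraries, at 20.3 and 18.5 CPM against 26.3 and 33.9 CPM in control libraries (log2 fold change -0.63 ± 0.56, SE).

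Other Golgi members were spread around 0. Rab39 measured 78.3 and 80.2 CPM in Trim75-OE libraries, against 43.8 and 53.5 CPM in control libraries, and the groups were apart (log2 fold change 0.70 ± 0.34, SE). Rab6a, which carries vesicles from the Golgi, had 223 and 181 CPM in Trim75-OE libraries and 199.9 and 99.2 CPM in control libraries, and it shares exon bases with Mrpl48 and has a near-copy in the row Gm13082. Rab18, found on the ER and on lipid droplets, had 71.5 and 66.4 CPM in Trim75-OE libraries and 60.2 and 53.1 CPM in control libraries (log2 fold change 0.28 ± 0.34, SE). Arl1, which recruits golgins to the trans-Golgi, had 90.4 and 44.5 CPM in Trim75-OE libraries and 33.5 and 55.4 CPM in control libraries. A pseudogene row, Gm18541, matches Arl1 at 98.9% identity over 539 aligned positions and held 464 and 345 reads in Trim75-OE libraries against 286 and 372 reads in control libraries, so the level of Arl1 is uncertain.

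**Figure D3:**
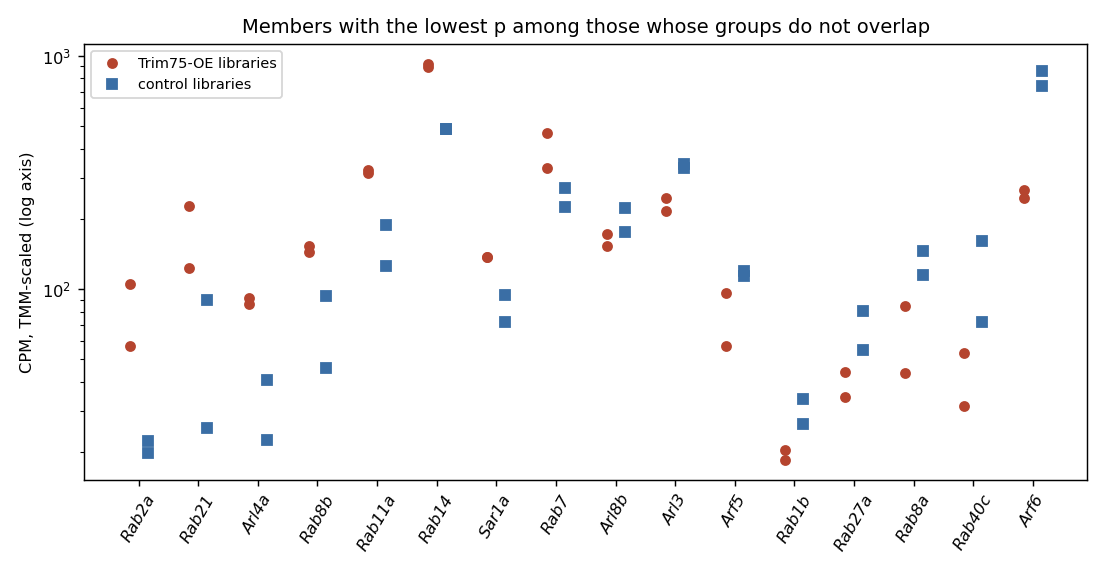
CPM (TMM-scaled, log axis) in each library for the 8 members with the lowest p in each direction among those with a mean of at least 10 CPM and groups that do not overlap; red circles are Trim75-OE libraries and blue squares are control libraries, 2 each. Arf6 at the right has its red points at 246 and 266 CPM below its blue points at 740.3 and 860.2 CPM, and Rab14 has red points at 895 and 924 CPM above blue points at 483 and 484 CPM.

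The exocytic pair Rab8a and Rab8b, which share the routes to the plasma membrane and the cilium, had values in opposite directions. Rab8a measured 43.7 and 84.5 CPM in Trim75-OE libraries, against 146 and 114 CPM in control libraries, a log2 fold change of -1.02 ± 0.44 (SE). Rab8b measured 153 and 145 CPM in Trim75-OE libraries, against 93.5 and 45.7 CPM in control libraries, a log2 fold change of 1.10 ± 0.44 (SE). Neither passed the threshold: Rab8a had an adjusted p of 0.52 in edgeR and 0.27 in DESeq2, and Rab8b 0.48 in edgeR and 0.22 in DESeq2. In edgeR the log2 fold change of Rab8b was 1.69 without control replicate 1 and 0.67 without control replicate 2. Per length, Rab8a made up 22.4% and 37.2% of the FPKM of the pair in Trim75-OE libraries, against 61.3% and 71.7% in control libraries, so the more abundant of the pair was Rab8b in both Trim75-OE libraries and Rab8a in both control libraries. The mean shares were 29.8% ± 10.4 in Trim75-OE embryos and 66.5% ± 7.40 in control embryos (SD, n = 2 each). A short pseudogene row, Gm20689, is identical to Rab8b over its 279 bases. It had 73 and 47 reads in Trim75-OE libraries, against 12 and 1 in control libraries. Some reads could have been split between these rows, so Gm20689 cannot be taken as a separate observation.

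Shares of this kind were computed for the 12 pairs of lettered paralogues in which both genes averaged at least 10 CPM, a comparison chosen after the values were seen. The share of the first gene was higher in both Trim75-OE libraries for 3 pairs, lower in both for 1 pair and overlapping for 8 pairs. The Arl5 pairs share genes with each other, as do the Rab3 pairs, and no background for other pairs of genes was computed. The count is therefore not read as a result about the members. The pair that was lower was Rab8a with Rab8b, and its difference of -36.7 percentage points was the largest of the 12. In the pair Rab3b with Rab3d, Rabs of regulated exocytosis, Rab3b made up 30.9% and 35.1% in Trim75-OE libraries, against 23.1% and 17.7% in control libraries. Rab11a made up 97.9% and 96.8% of its pair with Rab11b in Trim75-OE libraries, against 94.6% and 91.6% in control libraries, and Rab1a 87.2% and 84.2% of its pair with Rab1b in Trim75-OE libraries, against 78.4% and 81.6% in control libraries. With 2 libraries a group an exact permutation test could not reach a p under 0.05, and none was run.

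**Figure D4:**
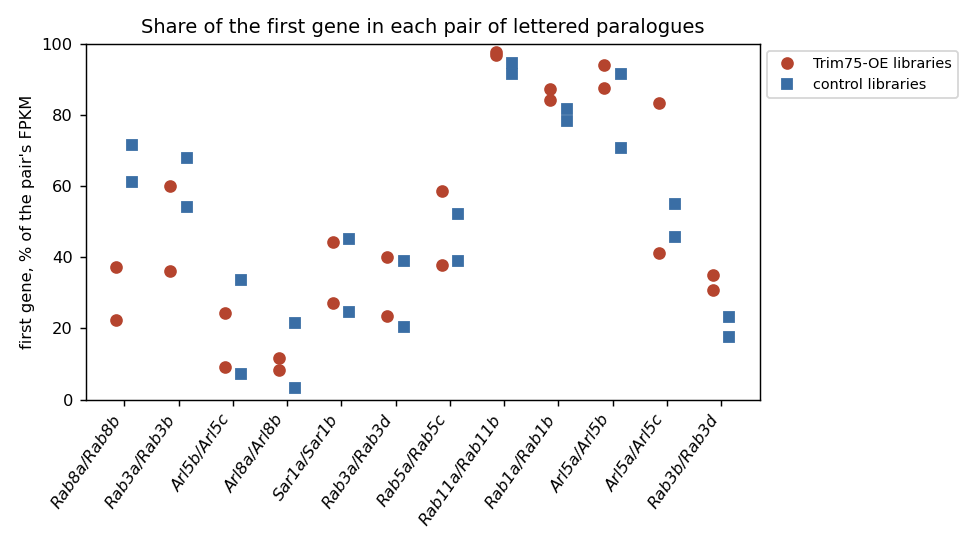
Percentage of the FPKM of a pair held by its first-named gene, for the 12 pairs with both genes at a mean of at least 10 CPM, with Trim75-OE libraries as red circles and control libraries as blue squares. Rab8a/Rab8b at the left is at 22.4% and 37.2% in Trim75-OE libraries, below 61.3% and 71.7% in control libraries.

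The start regions of Rab8a and Rab8b are shown for the contrast between these paralogues, in the same window and with the same letters in capitals. The Rab8a window lies at chr8:72160950-72161249 on the plus strand and the Rab8b window at chr9:66919656-66919955 on the minus strand (GRCm38.p6).
Rab8a: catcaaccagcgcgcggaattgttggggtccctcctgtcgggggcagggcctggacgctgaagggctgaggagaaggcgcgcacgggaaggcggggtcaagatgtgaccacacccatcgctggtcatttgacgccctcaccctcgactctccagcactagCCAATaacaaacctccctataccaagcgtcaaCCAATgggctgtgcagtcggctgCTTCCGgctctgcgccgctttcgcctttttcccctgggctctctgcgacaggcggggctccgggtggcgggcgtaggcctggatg
Rab8b: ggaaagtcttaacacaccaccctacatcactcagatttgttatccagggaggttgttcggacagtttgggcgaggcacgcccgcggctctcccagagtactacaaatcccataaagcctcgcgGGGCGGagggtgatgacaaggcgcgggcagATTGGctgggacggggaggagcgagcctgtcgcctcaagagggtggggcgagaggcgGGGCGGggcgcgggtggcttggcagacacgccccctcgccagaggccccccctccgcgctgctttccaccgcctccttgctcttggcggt
The Rab8a window held 2 CCAAT and 1 CGGAAG and no match to the GC box, while the Rab8b window held 2 GC boxes and 1 CCAAT and no match to CGGAAG. Their G and C content was 64% for Rab8a and 65.3% for Rab8b.

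Of the other genes of exocytosis, Rab10 had the highest CPM. Rab10, which moves vesicles to the basolateral and insulin-regulated surface in other cell types, measured 564 and 682 CPM in Trim75-OE libraries, against 350.05 and 527 CPM in control libraries. The groups were apart by a small margin, and the log2 fold change of 0.51 ± 0.29 (SE) had an adjusted p of 0.67 in edgeR. The antisense gene Rab10os shares 143 exon bases with it and had 904 and 325 reads in Trim75-OE libraries and 426 and 970 reads in control libraries. Rab27a, which docks secretory granules, had lower values, at 43.9 and 34.3 CPM in Trim75-OE libraries, against 54.8 and 80.4 CPM in control libraries (log2 fold change -0.79 ± 0.43, SE, adjusted p = 0.64 in edgeR). Rab3d, the most abundant Rab3 gene per length, was level between the groups, at 62.7 and 101 CPM in Trim75-OE libraries and 98.6 and 68.4 CPM in control libraries. Of the 9 tested genes in this role 3 had higher and 6 lower values. Both Trim75-OE libraries lay above both control libraries for 2 (22.2%, background 24%) and below for 3 (33.3%, background 19.6%). Calls numbered 0 in edgeR (background 0%) and 0 in DESeq2 (background 5.51%), and 0 had an unadjusted edgeR p under 0.05 (background 11.2%).

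Late endosome and lysosome genes had mixed values, with 4 of 11 higher, 7 lower and a median log2 fold change of -0.30. Both Trim75-OE libraries lay above the controls for 3 of them, Rab7, Rab32 and Rab7b (27.3%, background 24%), and below for 1, Arl8b (9.09%, background 19.6%). Rab32, known from melanosome biogenesis, had 310 and 170 reads in Trim75-OE libraries, against 154 and 0 in control libraries, and Rab7b had 142 and 127 reads in Trim75-OE libraries, against 90 and 85 in control libraries. Rab7, which drives the fusion of late endosomes with lysosomes, measured 329 and 464 CPM in Trim75-OE libraries, against 224 and 272 CPM in control libraries, a log2 fold change of 0.68 ± 0.28 (SE) with an adjusted p of 0.50 in edgeR. The row Rab7-ps1 matches it at 98.4% identity over 622 bases and had 522 and 611 reads in Trim75-OE libraries, against 304 and 387 in control libraries, so reads of Rab7 could have been split. Arl8b, which links lysosomes to kinesin, measured 171 and 153 CPM in Trim75-OE libraries, against 176 and 223 CPM in control libraries, a difference of -0.30 ± 0.26 (SE) on the log2 scale. Rab38 and Rab12 overlapped between the groups, with log2 fold changes of -0.05 and -0.36.

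In the group of cilium and microtubule genes, Arl3 was the most abundant. Arl3, which releases lipid-modified cargo in the cilium, measured 216 and 246 CPM in Trim75-OE libraries, against 344 and 331 CPM in control libraries. The groups were tight and apart, and the log2 fold change was -0.55 ± 0.21 (SE), with an adjusted p of 0.47 in edgeR and 0.30 in DESeq2. Arl6, a partner of the BBSome coat of cilia, measured 108 and 132 CPM in Trim75-OE libraries and 57.6 and 117 CPM in control libraries, and the groups overlapped. Arl13b, an exchange factor for Arl3, had 332 and 155 reads in Trim75-OE libraries, against 145 and 48 in control libraries, a log2 fold change of 1.20 ± 1.04 (SE).

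The remaining members included Arl4a and Rab40c. Arl4a, which recruits cytohesins, the exchange factors of Arf6, to the plasma membrane, measured 86.4 and 91.4 CPM in Trim75-OE libraries, against 22.5 and 40.7 CPM in control libraries. The groups did not overlap. The log2 fold change of 1.49 ± 0.45 (SE) had an adjusted p of 0.36 in edgeR and 0.086 in DESeq2. In edgeR the fold change of Arl4a was 1.12 without control replicate 1 and 1.98 without control replicate 2. Rab40c, whose SOCS box joins it to a cullin ubiquitin ligase, measured 53.4 and 31.5 CPM in Trim75-OE libraries, against 72.2 and 160.4 CPM in control libraries, a log2 fold change of -1.45 ± 0.56 (SE) with an adjusted p of 0.46 in edgeR. It was -1.93 without control replicate 1 and -0.77 without control replicate 2. Arl16 measured 40.3 and 25.7 CPM in Trim75-OE libraries and 35.3 and 52.9 CPM in control libraries, with overlapping groups.

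The 11 members left out of the test were scarce or seen in a single library. Rab42 had 264 reads and Rab44 had 274 reads in control replicate 1 and 0 in the other 3 libraries, so their group difference rested on 1 library. Rab26 had 22 reads in the same library and 0 elsewhere. Rab6b (20 reads) and Arl9 (18 reads) were seen only in Trim75-OE replicate 2. Rab17 had 1 and 10 reads in Trim75-OE libraries and 0 in both control libraries, and Rab3c, Rab25, Rab27b, Rab28 and Rab30 had at most 16 reads in any library. Replicates agreed less well at low levels. The median fold between replicates of a group was 1.21 in Trim75-OE and 1.36 in control libraries for the 19 tested members at 100 CPM or more, and 2.00 in Trim75-OE and 3.28 in control libraries for the 23 members under 20 CPM. Over all tested genes it was 1.23 and 1.33 at 100 CPM or more, and 1.72 and 1.96 under 20 CPM, in Trim75-OE and control libraries.

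Of 169 tested regulators and partners of these GTPases edgeR called 0, with 6 higher and 4 lower at an unadjusted p under 0.05 (5.92%, against 11.2% of all genes). DESeq2 called 4 of 172 (2.33%, against 5.51% of all genes), all higher in Trim75-OE embryos, so both shares lay under those over all genes. Of 7 tested genes of Rab prenylation and GDI, 5 had higher and 2 lower values. Gdi2, the GDI that is expressed in most tissues, measured 382 and 574 CPM in Trim75-OE libraries, against 200.1 and 237 CPM in control libraries, with a log2 fold change of 1.13 ± 0.30 (SE), an adjusted p of 0.32 in edgeR and 0.034 in DESeq2. Among 37 Rab exchange factors 18 had higher and 19 lower values, and DESeq2 called Trappc8, a subunit of the TRAPPIII complex that activates Rab1. Trappc8 measured 169 and 99.9 CPM in Trim75-OE libraries, against 39.1 and 54.0 CPM in control libraries (log2 fold change 1.53 ± 0.42, SE, adjusted p = 0.33 in edgeR and 0.047 in DESeq2). Among 32 Rab GTPase-activating proteins 19 had higher and 13 lower values, and DESeq2 called Tbc1d22a, with 153 and 82 reads in Trim75-OE libraries and 0 in both control libraries. Against a floor of 3 reads over the control group its pooled level was 82.1-fold higher. That floor covers counting error only, not the spread between libraries, and the adjusted p of Tbc1d22a in edgeR was 0.32. Fewer genes had reads in the control libraries, and the part of this in the 0 reads of Tbc1d22a was not tested. With any single library left out, Gdi2 and Trappc8 each kept the DESeq2 call only without control replicate 2 (adjusted p = 0.026 and 0.025), with 0.075 to 0.80 and 0.095 to 0.89 otherwise. Tbc1d22a kept it without either control library and had an adjusted p of 0.33 without Trim75-OE replicate 2 and none without Trim75-OE replicate 1.

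Exchange factors of Arf and Sar1 had higher values in 8 of 12 genes, and their GTPase-activating proteins in 16 of 23. Both Trim75-OE libraries lay above both control libraries in 3 of the 12 (25%) and 9 of the 23 (39.1%), with a background of 24%. They lay below in 1 (8.33%) and 2 (8.70%), with a background of 19.6%, and the median log2 fold changes were 0.52 and 0.39. DESeq2 called 1 exchange factor, Psd2, which acts on Arf6, with 100 and 78 reads in Trim75-OE libraries and 2 and 0 in control libraries, at an adjusted p of 0.038 (0.38 in edgeR). DESeq2 gave Psd2 0.012 without control replicate 1, 0.11 without control replicate 2 and no adjusted p without either Trim75-OE library. Of the GTPase-activating proteins Arap2 had the highest CPM, at 284 and 149 CPM in Trim75-OE libraries and 117 and 148 CPM in control libraries, and its log2 fold change of 0.71 had an adjusted p of 0.66 in edgeR. That value was 0.15 without Trim75-OE replicate 1 and 1.10 without Trim75-OE replicate 2. Of 25 coat subunits 13 had higher and 12 lower values. Sec13 of the COPII coat, the subunit with the highest CPM, measured 181 and 173 CPM in Trim75-OE libraries, against 339 and 209 CPM in control libraries (log2 fold change -0.63 ± 0.32, SE). Of 33 effectors and tethers 20 had higher and 13 lower values, and Myo5b, a motor bound by Rab11, measured 339 and 543 CPM in Trim75-OE libraries and 371 and 216 CPM in control libraries.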

How the data were processed

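The authors processed reads with FastQC, Trim Galore, HISAT2, featureCounts and mm10, per the submitters' processing notes. Versions, annotation and the handling of strand and multi-mapped reads are not stated there, so genes with near-copies or overlapping partners are uncertain. Raw read counts and FPKM values per gene were deposited by the authors, per the file headers. The length implied by the FPKM matched the GENCODE M21 exon length within 0.5% for all 78 members.

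Members and lists were chosen with earlier results of these data known. The main test used edgeR (4.0.16) in R (4.3.3), with filterByExpr, TMM factors, glmQLFit and glmQLFTest on the group, Benjamini-Hochberg adjustment over all genes and a threshold of 0.05. Each standard error was derived from the fold change and its quasi-likelihood F. DESeq2 (1.42.0) and limma (3.58.1) on log2(FPKM + 1) and log2(FPKM + 0.1) were alternatives. Named members were those past the threshold in edgeR or DESeq2, the 8 with the lowest p in each direction among those at a mean of 10 CPM or more with groups apart, and the 2 with the highest FPKM per role. In each regulator list, the DESeq2 calls or the gene with the highest CPM were named. Other members were named after their values were seen. Near-copies were found with blastn (2.17.0) at 90% identity or more over at least 50% of the copy. The fits were tested on simulated data. Intervals from counting would cover counting error only, since no molecular identifiers are described. Figures were drawn with matplotlib (3.10.9).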

Additional observations from a re-analysis of the deposited data

How the results depend on the processing

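With 2 libraries a group, single omissions moved most counts, and a group reduced to 1 library took its spread from the remaining group. DESeq2 called 885 genes and 3 members, against 0 and 0 in edgeR. Rab42 and Rab44 were not among these 3, and had reads only in control replicate 1. DESeq2 called both without Trim75-OE replicate 2 and again without control replicate 2, so those calls rested on 1 library. Leaving out Trim75-OE replicate 1, Trim75-OE replicate 2, control replicate 1 and control replicate 2 in turn, DESeq2 (chosen after seeing the data) called 180, 130, 2379 and 1127 genes and 1, 3, 9 and 6 members. Members with higher values at an unadjusted p under 0.05 numbered 4 in edgeR and 7 in DESeq2, 1 to 9 in edgeR with single libraries left out, and 10 and 9 in DESeq2 without control replicates 1 and 2. Over all genes 1888 had such a p in either direction in edgeR and 2795 in DESeq2, and 551, 414, 3129 and 2221 in edgeR over the 4 omissions. Members with lower values there numbered 1 in edgeR, 3 with total counts only, 2 with no filter, 6 in DESeq2, 3 in limma with either pseudocount, 2 to 3 in edgeR with single libraries left out, and 5, 5, 2 and 4 in DESeq2 over the same 4 omissions. Members above both controls numbered 20, and 27 to 31 with single libraries left out in edgeR (31 and 32 in DESeq2 without Trim75-OE replicate 1 and control replicate 1). Members below numbered 11, and 19 to 26 with single libraries left out in edgeR (20, 21, 23 and 26 in DESeq2). With total counts only, 1913 of all genes had an unadjusted p under 0.05, and 1774 with no filter. In limma 2125 and 2189 of all genes had such a p, with pseudocounts of 1 and 0.1. Counts over all genes also moved with the omissions. The moves in the counts of members at such a p are therefore not read as a result about the members. A smaller group overlaps less often by construction. Under these omissions in edgeR 37.0% to 44.3% of the members lay above, against 35.8% to 39.1% of all genes. Below lay 27.1% to 35.6% of the members, against 27.5% to 35.0% of all genes. In DESeq2 36.8% to 42.7% of the members lay above, against 31.5% to 37.0% of all genes. Below lay 25.6% to 34.2% of the members there, against 24.8% to 34.9% of all genes. The median log2 fold change of the members, 0.16, ran from -0.039 to 0.40 with single libraries left out in edgeR, and was -0.058, 0.037 and 0.34 in DESeq2 without Trim75-OE replicate 1, Trim75-OE replicate 2 and control replicate 1. The median of all genes was 0.37 without control replicate 1, against 0.03 with all libraries. Of 490 comparisons of single named genes with an alternative, 466 kept direction and side of the threshold, 23 passed it under the alternative and 1 reversed. Arl6 reversed, at -0.0051 in DESeq2 without control replicate 1, against 0.46. Every edgeR and limma alternative called 0 of all genes, so the side could change only in DESeq2, where all 23 were found. The 466 therefore do not measure how stable the calls were.

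Replicate numbers were not used to pair the libraries in the main test. Deviations of same-numbered libraries correlated at 0.013 across genes, which does not settle whether the libraries were made in pairs. With a replicate block, 6 members were higher and 1 lower at an unadjusted p under 0.05, and 1342 genes in all, against 1888 without it.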
